A study of Homo sapiens with 12 samples.

Results

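The thioredoxin and peroxiredoxin system was followed through 10 genes, TXN, TXNRD1, TXNRD2, SRXN1, PRDX1, PRDX2, PRDX3, PRDX5, PRDX6 and TXNIP, listed by symbol for their roles in this system. They were chosen with earlier results of these data known. All 10 were found among the 55242 genes kept, and all 10 passed the filter on low counts in every comparison. Hs 578T is a triple-negative breast cancer cell line of the mesenchymal stem-like subtype. Both cell populations had been transduced with a lentivirus carrying either GFP or full-length NRF2. They were grown in a medium that contained methionine, glutamine and serum, and were left for 8 h with Cyss (added cystine) or w/o Cyss. The added cystine is taken here as 0.8 mM. The study's methods name this and a lower concentration for control cells, without saying which the sequenced cells had. Each of the 4 groups, GFP cells with Cyss, GFP cells w/o Cyss, NRF2 cells with Cyss and NRF2 cells w/o Cyss, had 3 libraries, 12 in all. GFP stands in the control population for the exogenous gene, so both populations had been exposed to virus, and the share of cells that took it up was not measured here. Nothing in the labels says that the 3 libraries of a group came from separate cultures. The p-values therefore measure only the spread between these libraries, which may be technical.

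Thioredoxin (TXN) is a small protein that reduces disulfides in other proteins and is itself returned to its reduced form by thioredoxin reductase at the expense of NADPH, by TXNRD1 in the cytosol and by TXNRD2 in mitochondria. Peroxiredoxins remove hydrogen peroxide with a reactive cysteine, and most of them depend on thioredoxin for their next cycle, whereas sulfiredoxin (SRXN1) rescues peroxiredoxins whose cysteine has been overoxidized. TXNIP binds reduced thioredoxin and restrains it, and it belongs to the alpha-arrestins, which also control glucose uptake. TXNRD1, SRXN1, TXN and PRDX1 are known targets of NRF2, a transcription factor that binds antioxidant response elements (AREs), and imported cystine itself can be reduced to cysteine by thioredoxin and TXNRD1.

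Promoter sequences are shown for TXNRD1, SRXN1 and TXNIP, the genes called most often or in the opposite direction in the comparisons that follow. RefSeq on GRCh38.p14 gave 13 promoters for 8 of the 10 genes, whereas PRDX1 and PRDX6 had no entry in the table used. Each stretch runs 5′ to 3′ on the strand of the gene, from 170 bases before the start of transcription to 10 bases after it. Capitals mark the ARE core TGACNNNGC or its reverse complement GCNNNGTCA, and the hexamer CACGAG. No ARE core, E-box or CACGAG match lay within the 300 bases examined for SRXN1, which says only that these letters were not in this window.
TXNRD1, first start, chr12:104215609-104215788, plus strand: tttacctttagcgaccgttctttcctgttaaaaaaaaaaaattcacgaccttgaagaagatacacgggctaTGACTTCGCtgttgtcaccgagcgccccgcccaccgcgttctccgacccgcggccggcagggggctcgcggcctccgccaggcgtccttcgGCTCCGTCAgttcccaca
TXNRD1, second start, chr12:104286862-104287041, plus strand: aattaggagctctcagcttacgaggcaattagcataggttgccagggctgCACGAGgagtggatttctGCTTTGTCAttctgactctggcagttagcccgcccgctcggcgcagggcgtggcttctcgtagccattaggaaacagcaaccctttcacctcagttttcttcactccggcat
SRXN1, chr20:653191-653370, minus strand: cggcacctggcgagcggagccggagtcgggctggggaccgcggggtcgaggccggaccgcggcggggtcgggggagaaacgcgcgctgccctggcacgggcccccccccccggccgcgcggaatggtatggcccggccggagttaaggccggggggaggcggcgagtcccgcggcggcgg
TXNIP, chr1:145996570-145996749, minus strand: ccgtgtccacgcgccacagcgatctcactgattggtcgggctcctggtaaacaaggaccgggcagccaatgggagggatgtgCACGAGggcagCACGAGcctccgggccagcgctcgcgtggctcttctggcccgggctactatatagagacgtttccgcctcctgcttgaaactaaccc

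Both TXNRD1 starts had an ARE core match in the 300 bases searched. The first start had TGACTTCGC on the strand of the gene at positions -99 to -91 from the start, and a match on the other strand, GCTCCGTCA, at positions -8 to 1. The second start had a match on the other strand, GCTTTGTCA, at positions -102 to -94. No other promoter of the 8 genes held a match, and 13.3% of the 35116 promoters in the table held at least 1. The E-box CACGTG occurred among these promoters only in that of PRDX3, at positions -157 to -152, and in 7.26% of all promoters. The TXNIP stretch held CACGAG at positions -88 to -83 and again at positions -77 to -72, with 5 bases between them. Pairs of this hexamer with that spacing on 1 strand were found in 2 of the 35116 promoters, those of TXNIP and KCTD5, while 6.78% held the single hexamer on either strand. The hexamer was added after the TXNIP promoter had been read, and the spacing is the one seen there. Its match in TXNIP was thus fixed in advance, and the rarity of the pair is no test. Such matches describe the letters and are not evidence of binding.

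The libraries held between 27250993 and 44596870 reads on genes, and the 10 genes took from 0.134 to 0.176% of them. NFE2L2, which encodes NRF2, was read first as the check of the labels. Its normalized counts ran from 3647 to 4655 in the 6 GFP libraries and from 6598 to 8396 in the 6 NRF2 libraries, so the 2 populations did not overlap. The labels call the cells epithelial. VIM was between 142637 and 167992 normalized counts in every library, while CDH1 was between 3.09 and 13.8 and EPCAM did not exceed 1.03. The other epithelial markers read went both ways. KRT18 was between 773 and 1473 and KRT8 between 151 and 233, whereas KRT19, CLDN3 and CLDN7 did not exceed 3.29. NRF2 cells w/o Cyss replicate 1 was the lowest library of its group for 9 of the 10 genes described here, and replicate 3 was the highest for 8 of the 10. GFP cells w/o Cyss replicate 1 was the lowest of its group for 7 of the 10. Such shares were not computed over all genes. NRF2 cells w/o Cyss replicate 1 also had the largest share of reads outside genes, 7.84% against 5.82 to 6.69% in the other 11 libraries. Its part in the results was not tested beyond leaving it out. Values without it are given beside the results of the 10 genes that it moved most.

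**Figure D1:**
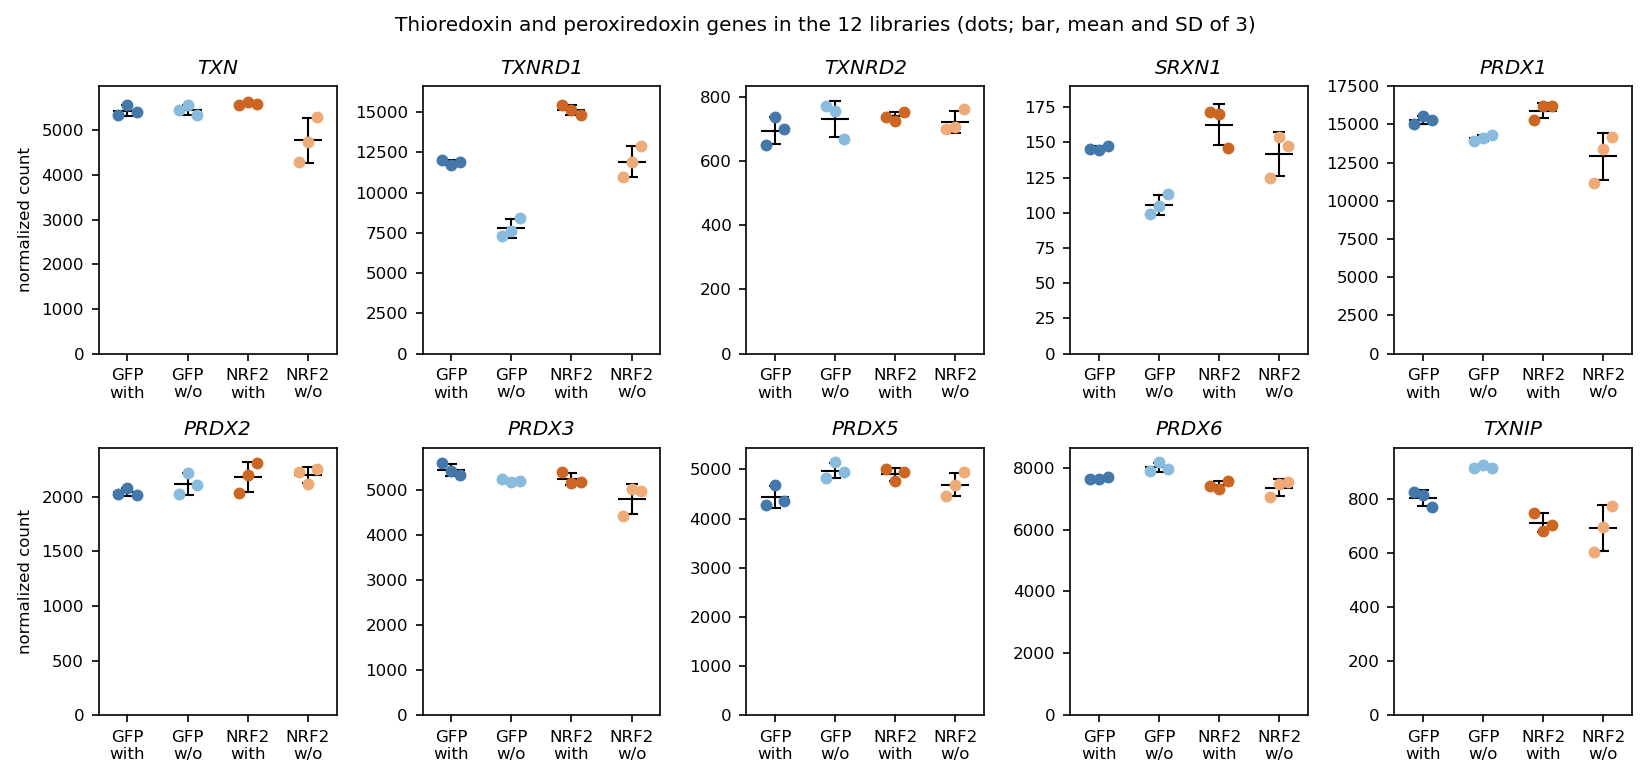
Normalized counts (y axes, each from 0) of the 10 genes in the 12 libraries, grouped on the x axis by exogenous gene and medium; dots are libraries, and bars give the mean and SD of 3. TXNRD1 and SRXN1 were lowest in the 3 libraries of GFP cells w/o Cyss, and TXNIP was highest there, while the NRF2 w/o Cyss libraries were spread widely for TXN, PRDX1 and TXNIP.

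Each comparison was fitted over all genes with edgeR's quasi-likelihood test and Benjamini-Hochberg adjustment, and a gene was called when its adjusted p was under 0.1 and its log2FC was above 0.32 in size. All adjusted p-values that follow come from this test. In bulk RNA, fewer cells that express a gene and less of its RNA per cell cannot be told apart. Counts are compared between genes only after division by transcript length.

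TXNRD1, the cytosolic thioredoxin reductase, had the largest log2FC in size of the 10 genes in each of the 4 comparisons of medium or exogenous gene. It spans chr12:104609557-104744085 on the plus strand of GRCh37. In GFP cells with Cyss its normalized counts were 12002, 11727 and 11898 in replicates 1 to 3, and w/o Cyss they were 7314, 7590.3 and 8446. NRF2 cells had 15416, 15112 and 14837 with Cyss and 10961, 11921 and 12890.5 w/o Cyss. The highest levels were thus in NRF2 cells with Cyss and the lowest in GFP cells w/o Cyss, with no overlap with any other group at either end. The range of GFP cells with Cyss lay inside that of NRF2 cells w/o Cyss.

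Upon Cyss depletion TXNRD1 fell by 34.5% in GFP cells (log2FC -0.61, SE 0.0479, adjusted p = 3.84e-06). The decrease in NRF2 cells was smaller, with a log2FC of -0.34 (SE 0.0538, adjusted p = 3.10e-04), and it lost its call by the fold threshold when NRF2 cells w/o Cyss replicate 1 was left out (log2FC -0.29). Exogenous NRF2 raised TXNRD1 with Cyss (log2FC 0.35, SE 0.0327, adjusted p = 5.91e-06) and more so w/o Cyss (log2FC 0.60, SE 0.0666, adjusted p = 2.99e-04). Whether the depletion response itself differed by exogenous gene was tested as an interaction over the 12 libraries, and for TXNRD1 this difference was 0.27 on the log2 scale (SE 0.0773, adjusted p = 0.0381). It passed in 9 of the 12 leave-one-out fits, each without 1 library, with values from 0.21 to 0.33, and was lost without GFP cells w/o Cyss replicate 1 or 2 or NRF2 cells with Cyss replicate 3 (adjusted p = 0.105, 0.120 and 0.113). These comparisons share groups and are not independent of each other.

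SRXN1, which reactivates overoxidized peroxiredoxins, had its highest and lowest group means in the same groups as TXNRD1. It lies on chr20:627259-633844, minus strand, in GRCh37. Its normalized counts in GFP cells were 145.5, 144.6 and 147.8 with Cyss and 99.0, 104.6 and 113.2 w/o Cyss. In NRF2 cells they were 171.8, 170.1 and 145.8 with Cyss and 124.4, 153.6 and 147.4 w/o Cyss. GFP cells w/o Cyss were below each of the other 9 libraries, and the other 3 groups overlapped with each other in part.

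SRXN1 fell in GFP cells upon depletion (log2FC -0.47, SE 0.1001, adjusted p = 0.0216), a call that held in 6 of 6 leave-one-out fits. In depleted cells it was higher with NRF2 than with GFP (log2FC 0.41, SE 0.122, adjusted p = 0.0320), but that call held in only 3 of 6 leave-one-out fits. It was lost without GFP cells w/o Cyss replicate 1 or 2 (adjusted p = 0.118 and 0.106) or NRF2 cells w/o Cyss replicate 2 (adjusted p = 0.114). The depletion log2FC in NRF2 cells was -0.20 (SE 0.117, adjusted p = 0.258; -0.11 without replicate 1 of NRF2 cells w/o Cyss), and with Cyss the log2FC for NRF2 against GFP was 0.15 (SE 0.0964, adjusted p = 0.407), neither of which passed. The difference between the responses was 0.27 (adjusted p = 0.274), with an interval of 2 SE from -0.03 to 0.57. In GENCODE 44 on GRCh37, 2292 of the 2528 exon bases of SRXN1, 90.7%, also lie in exons of a readthrough gene on the same strand. HTSeq assigns no gene to a read that fits 2 genes, and the annotation release used for counting is not given in the sources used here, so the SRXN1 counts may rest on a small part of its transcript and were not compared with other genes by level.

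TXNIP, the protein that holds thioredoxin inactive, had its highest group mean where TXNRD1 had its lowest, in GFP cells w/o Cyss. Its lowest mean was in NRF2 cells w/o Cyss, at 693 normalized counts, beside 713 in NRF2 cells with Cyss. On GRCh37 it lies at chr1:145438490-145442635 on the plus strand. In GFP cells its normalized counts were 829, 815 and 772 with Cyss and 916, 929 and 918 w/o Cyss. In NRF2 cells they were 751, 682 and 705 with Cyss and 605, 697 and 776 w/o Cyss. GFP cells w/o Cyss were above the other 9 libraries, and every NRF2 library with Cyss was below every GFP library.

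Among depleted cells TXNIP was lower with NRF2 than with GFP (log2FC -0.42, SE 0.0785, adjusted p = 0.00367), and this held in 6 of 6 leave-one-out fits, with log2FC from -0.51 to -0.33. With Cyss the log2FC for NRF2 against GFP was -0.18 (SE 0.0561, adjusted p = 0.0933), past the adjusted p but not the fold threshold. Depletion gave 0.19 in GFP cells (adjusted p = 0.0658), again short of the fold threshold, and -0.04 in NRF2 cells (adjusted p = 0.772). The NRF2 value turned to 0.05 without NRF2 cells w/o Cyss replicate 1. The difference between the responses, -0.23 (SE 0.1001, adjusted p = 0.158), was not called.

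TXN, the thioredoxin that carries the electrons, lies on chr9:113006090-113018787 (GRCh37, minus strand). Its normalized counts were between 5340.2 and 5641 in all 9 libraries of the GFP groups and of NRF2 cells with Cyss. In NRF2 cells w/o Cyss they were 4282, 4743 and 5301, below those 9 but spread over a range wider than that of the other groups together. Depletion gave a log2FC of 0.00 in GFP cells (SE 0.0370, adjusted p = 0.975). In NRF2 cells it gave -0.23 (SE 0.0620, adjusted p = 0.0147), past the adjusted p and short of the fold threshold. The difference between the responses, -0.23 (SE 0.0779, adjusted p = 0.0670), was called, as no fold threshold applies to it. It held in only 3 of 12 leave-one-out fits, with adjusted p from 0.00252 to 0.160. Without NRF2 cells w/o Cyss replicate 1 it was -0.16 (adjusted p = 0.106).

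TXNRD2, the mitochondrial reductase (chr22:19863040-19929343, minus strand), did not separate any of the groups. Its normalized counts ran from 651 to 771 over the 12 libraries, and its log2FC lay between -0.03 and 0.09 in the 4 comparisons of medium or exogenous gene, with adjusted p of at least 0.441. The interval of 2 SE around its depletion log2FC in GFP cells was -0.06 to 0.21 and in NRF2 cells -0.16 to 0.09. Changes of the size seen for TXNRD1 in GFP cells lie outside both intervals.

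**Figure D2:**
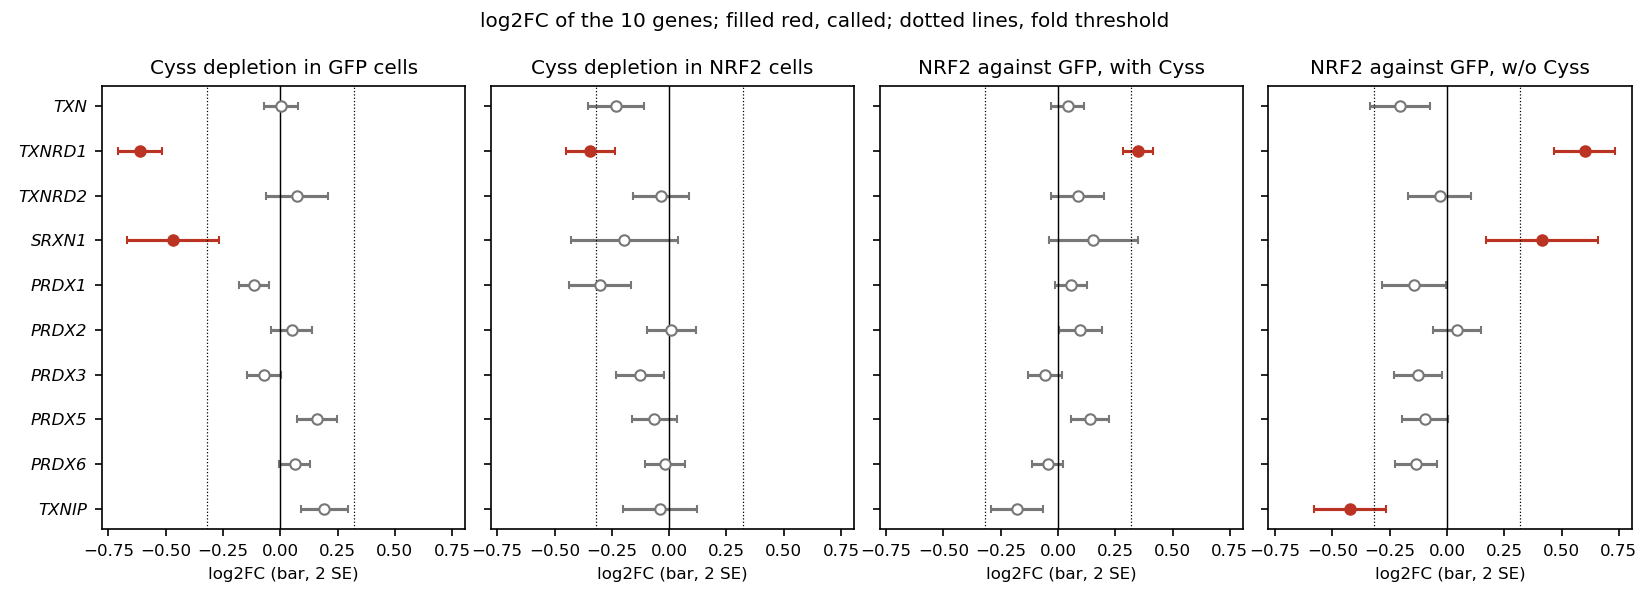
log2FC (x axis) of the 10 genes (y axis) in 4 comparisons; points are fitted values, bars are 2 SE, filled red points are called, and dotted lines mark a log2FC of 0.32 in size. TXNRD1 was called in each panel, lower upon depletion and higher with NRF2, and TXNIP was the only gene of the 10 called lower with NRF2 w/o Cyss.

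The 5 peroxiredoxins differed little between groups, and none was called in any of the 4 comparisons of medium or exogenous gene. PRDX1, an abundant cytosolic member and a known NRF2 target (chr1:45976586-46008404, minus strand), was read in GFP cells at 14991, 15574 and 15294.5 normalized counts with Cyss and 13931, 14128 and 14312 w/o Cyss. NRF2 cells had 15316, 16171 and 16225 with Cyss and 11181, 13364 and 14164 w/o Cyss. In both cell populations each library w/o Cyss was below each library with Cyss. The log2FC was -0.12 in GFP cells (SE 0.0331, adjusted p = 0.0820) and -0.30 in NRF2 cells (SE 0.0674, adjusted p = 0.00474), both past the adjusted p and short of the fold threshold. The NRF2 value was called in 3 of 6 leave-one-out fits and ranged from -0.37 to -0.21, the latter without NRF2 cells w/o Cyss replicate 1. Exogenous NRF2 gave 0.06 with Cyss (adjusted p = 0.400) and -0.14 w/o Cyss (adjusted p = 0.168).

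PRDX5, a peroxiredoxin found in mitochondria, peroxisomes and cytosol (chr11:64085593-64089283, plus strand), was read in GFP cells at 4275, 4689.8 and 4363 normalized counts with Cyss and 4834, 5142 and 4952 w/o Cyss. In NRF2 cells it had 5007, 4756 and 4946 with Cyss and 4466, 4675 and 4940.0 w/o Cyss. Only the GFP libraries separated by medium. Depletion gave 0.16 in GFP cells (SE 0.0437, adjusted p = 0.0668) and -0.06 in NRF2 cells (SE 0.0484, adjusted p = 0.381), neither past both thresholds. With Cyss, NRF2 libraries were above GFP libraries (log2FC 0.14, SE 0.0413, adjusted p = 0.0741), past the adjusted p and short of the fold threshold. W/o Cyss the log2FC for NRF2 against GFP was -0.10 (adjusted p = 0.196). The difference between the 2 responses was called at -0.23 (SE 0.0663, adjusted p = 0.0402) and held in 11 of 12 leave-one-out fits. The exception was the fit without GFP cells w/o Cyss replicate 2 (-0.21, adjusted p = 0.118).

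PRDX3, the mitochondrial peroxiredoxin (chr10:120927232-120938324, minus strand), averaged in GFP cells 5449 ± 135 normalized counts with Cyss and 5197 ± 34.3 w/o Cyss, and 5240.2 ± 130.4 and 4804 ± 330.1 in the corresponding NRF2 groups (SD, n = 3 each). Its lowest library was NRF2 cells w/o Cyss replicate 1, at 4423.5. Depletion gave a log2FC of -0.07 in GFP cells (adjusted p = 0.338) and -0.13 in NRF2 cells (adjusted p = 0.0998). Without NRF2 cells w/o Cyss replicate 1 the NRF2 value was -0.07 (adjusted p = 0.272). PRDX6, which uses glutathione rather than thioredoxin as its reductant (chr1:173446469-173457954, plus strand), had means of 7669.6 ± 47.4 and 8016 ± 157 in GFP cells with and w/o Cyss. In NRF2 cells the means were 7440.4 ± 136 and 7357 ± 273 (SD, n = 3 each). NRF2 libraries were below GFP libraries in both media, with a log2FC of -0.04 with Cyss (adjusted p = 0.503). W/o Cyss it was -0.14 (adjusted p = 0.0525), past the adjusted p and short of the fold threshold. Without NRF2 cells w/o Cyss replicate 1 the latter PRDX6 value was -0.10 (adjusted p = 0.125). PRDX2, a cytosolic member best known from red blood cells (chr19:12907634-12912614, minus strand), ran from 2016 to 2312 normalized counts over the 12 libraries, and its adjusted p was at least 0.277 in these 4 comparisons.

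Scaled by the length of the canonical transcript in GENCODE 44, PRDX1 had the highest level of the peroxiredoxins in every group, with an RPKM, computed here from the normalized counts, of 481 ± 9.19 in GFP cells with Cyss (SD, n = 3). TXN had 219.8 ± 4.96 on the same scale, PRDX5 154 ± 7.56, PRDX6 135 ± 0.835, PRDX3 104 ± 2.58, TXNRD1 91.6 ± 1.07, PRDX2 65.7 ± 1.15, TXNRD2 10.7 ± 0.666 and TXNIP 8.28 ± 0.305. Neighbours in this order did not overlap in that group. TXNRD1 moved within the order: in NRF2 cells with Cyss, at 117 ± 2.24, it was above PRDX3, at 100.4 ± 2.498, and in GFP cells w/o Cyss, at 60.02 ± 4.55, it was below PRDX2, at 68.2 ± 3.12. The highest TXNRD1 library of the latter group, at 65.1, was just under the lowest PRDX2 library, at 65.3.

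**Figure D3:**
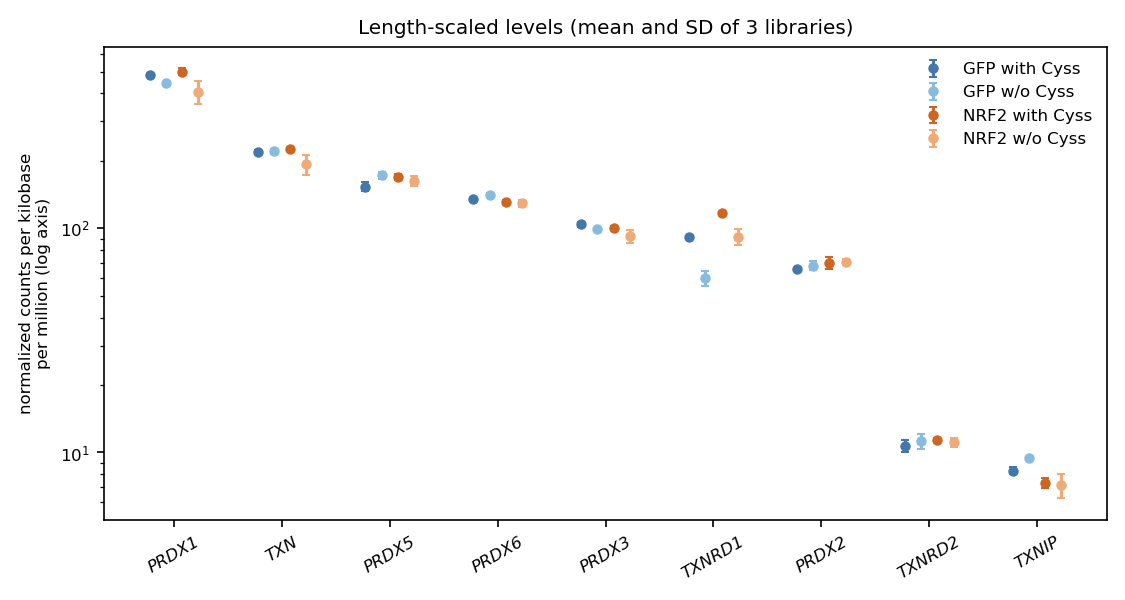
RPKM of the canonical transcript (y axis, log scale) for 9 of the genes, ordered by their mean; points are group means and bars the SD of 3 libraries, and SRXN1 is left out because most of its exon bases are shared with another gene. PRDX1 was highest in each group, and TXNRD1 is the gene whose rank moved most between groups.

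On this scale the TXNRD1 level was 41.7 ± 1.42 per 100 of TXN in GFP cells with Cyss and 27.2 ± 2.57 w/o Cyss. The NRF2 groups had 51.5 ± 1.14 and 47.8 ± 1.24, respectively (SD, n = 3 each). The ranges of the 4 groups did not overlap, and the ratio in NRF2 cells varied less between libraries w/o Cyss than TXNRD1 or TXN did alone. TXNIP per 100 of TXN was 3.77 ± 0.163 and 4.29 ± 0.0705 in GFP cells with and w/o Cyss and 3.24 ± 0.177 and 3.69 ± 0.0795 in NRF2 cells. By this ratio the libraries w/o Cyss were above those with Cyss in both cell populations. PRDX1 made up 51.2% ± 0.283 of the summed level of the 5 peroxiredoxins in GFP cells with Cyss and 48.0% ± 0.530 w/o Cyss, and 51.5% ± 0.951 and 47.1% ± 2.06 in the NRF2 groups. PRDX5 went from 16.3% ± 0.528 to 18.6% ± 0.334 and from 17.5% ± 0.619 to 18.9% ± 0.654. These are ratios of length-scaled reads and do not count molecules. TXN reads that also fit 1 of its 7 named pseudogenes may be missing as not unique. The ratios are descriptions, and a ratio shows that 2 genes differed unequally, not which of them did. With 3 libraries against 3, an exact two-sided permutation test of such a value cannot give a p below 0.1.

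The 10 genes, like the lists further on, were chosen with earlier results of these data known. Shares of all genes are therefore given beside their counts for scale, not as a test of the 10 as a set. They were not computed for an unadjusted p under 0.05, so counts at that threshold are not read as a result. Counted over the 10 genes, Cyss depletion of GFP cells gave 2 called lower and 0 called higher, against 0.533% lower and 1.57% higher among all genes tested. At an unadjusted p under 0.05 there were 3 lower and 2 higher, and DESeq2 also called 0 higher. The counts were the same at an adjusted p under 0.1 without a fold threshold, against 2.81% of all genes lower and 3.11% higher. The groups did not overlap for 7 of the 10, against 23.6% of all genes. These 7 were TXNRD1, SRXN1, PRDX1 and PRDX3 with lower counts and PRDX5, PRDX6 and TXNIP with higher counts w/o Cyss. In NRF2 cells 1 was called lower and 0 higher (0 higher also by DESeq2 and at an unadjusted p under 0.05), against 5.14% and 6.81%, and 4 of the 10 did not overlap, against 37.8%. The 4 of 10, a share near that of all genes, were TXN, TXNRD1, PRDX1 and PRDX3, each lower w/o Cyss. Shares of all genes that did not overlap were not computed by direction. Of the 10 log2FC 9 were negative, with a median of -0.10. Among all genes 9008 of 17266 were negative, with a median of -0.01. Without NRF2 cells w/o Cyss replicate 1, TXNRD1 was not called, 7 of the 10 log2FC were negative and their median was -0.05, with PRDX2, PRDX6 and TXNIP at 0.00, 0.01 and 0.05.

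Exogenous NRF2 with Cyss gave 1 called higher and 0 lower (0 lower also by DESeq2, and 1 at an unadjusted p under 0.05), against 1.36% and 0.201%, and 4 of the 10 did not overlap, against 24.7%. These were TXNRD1 and PRDX5 with higher counts and PRDX6 and TXNIP with lower counts in NRF2 cells. W/o Cyss there were 2 called higher and 1 lower, against 5.98% and 4.09%, and 6 of the 10 did not overlap, against 38.2%. The 2 called higher were TXNRD1 and SRXN1, and TXNIP was the one called lower. TXN and PRDX1, though known as NRF2 targets, had log2FC of -0.21 (adjusted p = 0.0435) and -0.14 (adjusted p = 0.168) for NRF2 against GFP cells in this medium, neither of which was called. Without NRF2 cells w/o Cyss replicate 1 these were -0.13 (adjusted p = 0.129) and -0.04 (adjusted p = 0.526), while the 3 calls held.

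NRF2 cells w/o Cyss were also set against GFP cells with Cyss, a contrast in which medium and exogenous gene both differ. Of the 10 genes 0 were called by edgeR in either direction, and 0 by DESeq2, against 7.21% of all genes higher and 4.85% lower. At an unadjusted p under 0.05, 4 genes differed, namely TXN, PRDX1, PRDX3 and TXNIP, all with lower counts in NRF2 cells w/o Cyss. The share of all genes was not computed at that threshold. At an adjusted p under 0.1 without a fold threshold, 14.7% of all genes were lower and 14.3% higher. TXNRD1 had a log2FC of -0.01 with an interval of 2 SE from -0.12 to 0.10, and SRXN1 had -0.05 with an interval from -0.26 to 0.15. PRDX1 came nearest to a call, at -0.26 (SE 0.0705, adjusted p = 0.0202), and was called without NRF2 cells w/o Cyss replicate 3 (log2FC -0.33). Without replicate 1 of that group it was -0.16 (adjusted p = 0.0249), TXN was -0.12 (adjusted p = 0.148), TXNIP -0.13 (adjusted p = 0.210) and PRDX3 -0.13 (adjusted p = 0.0579). The groups did not overlap for 5 of the 10, 4 of them with lower counts, against 38.8% of all genes in either direction. Shares of all genes by direction were not computed.

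**Figure D4:**
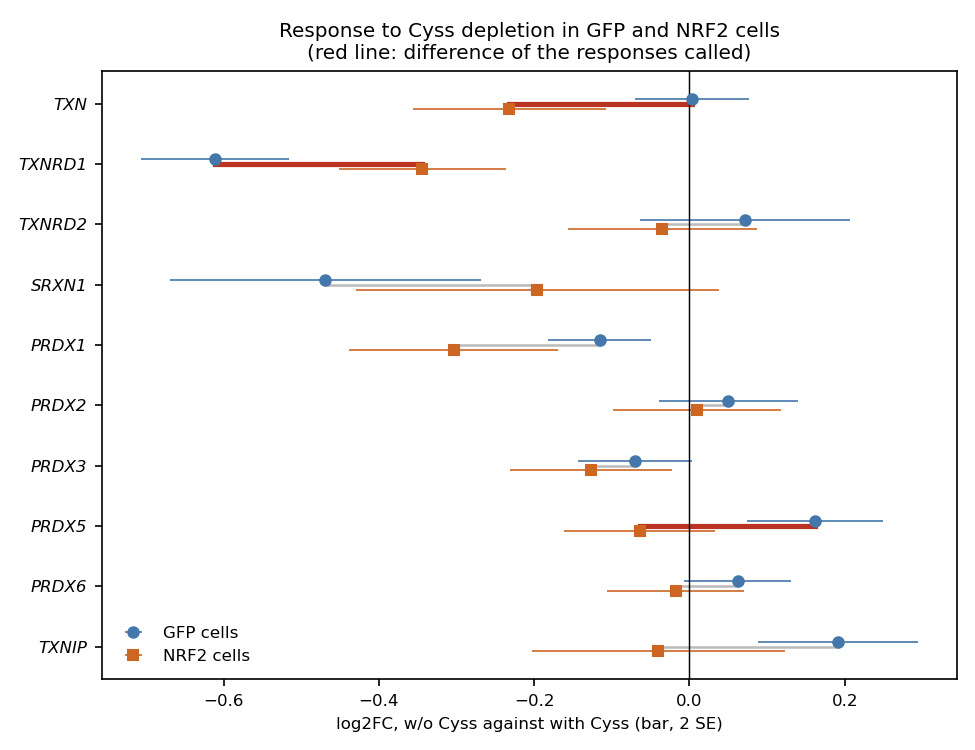
log2FC upon Cyss depletion (x axis) of each gene (y axis) in GFP cells (circles) and in NRF2 cells (squares), with bars of 2 SE; a thick red line joins the 2 values where the difference between them was called. TXNRD1 was the only gene of the 10 whose called difference was positive, at 0.27, and those of TXN and PRDX5 were both -0.23.

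The difference between the 2 responses was thus called for 3 of the 10 genes, 1 with a higher value in NRF2 cells against 8.97% of all genes, and 2 with a lower value against 6.13%. For TXNRD1 the response of NRF2 cells was the smaller decrease. For TXN and PRDX5 the response of GFP cells was 0.00 and 0.16 and that of NRF2 cells was -0.23 and -0.06.

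The rest of the pathway was read from 5 lists with 37 genes, of which 33 or 34 passed the filter on low counts in a given comparison and ARRDC5, MLXIPL and GPX2 passed in none of the pairwise fits. Depletion in GFP cells called 0 of 34 by edgeR and by DESeq2, with 8 at an unadjusted p under 0.05. NRF2 with Cyss called 0 of 34 by either tool, with 5 at an unadjusted p under 0.05. The share of all genes at that unadjusted threshold was not computed. In NRF2 cells depletion called 1 of 33 higher and 4 lower, against 6.81% and 5.14% of all genes. MAP3K5, which encodes the kinase ASK1 that reduced thioredoxin holds in check, rose (log2FC 0.52, adjusted p = 9.01e-06), while TXNRD3 (-0.33), the methionine sulfoxide reductases MSRB1 (-0.34) and MSRB2 (-0.39) and the glutathione peroxidase GPX1 (-0.37) fell. Among depleted cells NRF2 gave 3 of 34 higher and 2 lower, against 5.98% and 4.09%. MAP3K5 (0.43), MLXIP (0.40), which encodes the glucose-responsive factor MondoA that drives TXNIP, and the mitochondrial superoxide dismutase SOD2 (0.36) were higher, and the thioredoxin-like nucleoredoxin NXN (-0.40) and MSRB2 (-0.44) were lower. DESeq2 did not call MSRB2 in either of these comparisons.

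By list, the other thioredoxin and peroxiredoxin enzymes had 8 of 8 negative log2FC for NRF2 against GFP w/o Cyss, and 1 of the 8 was called lower. Their median was -0.18, beside -0.02 for all genes, of which 9197 of 17297 were negative. NRF2 cells w/o Cyss replicate 1 was the lowest of its group for PRDX4, TXNDC17, TXNL1, TXNDC9 and TXNDC12, but not for TXN2, TXNRD3 and NXN. Values of the lists without it were not computed. The 4 glutaredoxins gave 0 calls by edgeR and by DESeq2 in all 6 comparisons, and from 0 to 3 of them had an unadjusted p under 0.05. The difference between the responses was called for 12 of 34, 4 higher and 8 lower, against 8.97% and 6.13% of all genes. The 4 were MAP3K5 (0.45), MLXIP (0.37), SOD2 (0.31) and RRM2 (0.29), a subunit of ribonucleotide reductase. The 8 were MSRB2 (-0.62), TXNRD3 (-0.36), NXN (-0.35), MSRB1 (-0.34), PRDX4 (-0.26), GPX1 (-0.25), SOD1 (-0.22) and GPX8 (-0.19). NRF2 cells w/o Cyss against GFP cells with Cyss called MAP3K5 and MLXIP higher and NXN, GPX1 and ARRDC4, an alpha-arrestin close to TXNIP, lower, 2 and 3 of 34, against 7.21% and 4.85%. ARRDC4 was near the limit of detection, at 6.16 ± 0.969 against 12.9 ± 1.08 normalized counts (SD, n = 3), and DESeq2 did not call it.

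Over the 12 libraries, the pair of the 10 genes most alike in log2 normalized counts was TXNRD1 and SRXN1 (Pearson's r = 0.955), followed by PRDX6 and TXNIP (0.933) and TXN and PRDX1 (0.900). Among the 12286 genes that averaged 100 normalized counts or more, COL27A1 (0.981) and DOCK10 (0.970) were most like TXNRD1, and DOCK10 (0.967) and TXNRD1 were most like SRXN1. TXNIP was most like C2orf43 (0.947) and ICT1 (0.945), PRDX1 most like SNHG12 (0.957) and GLA (0.941), and PRDX6 most like SNRPD3 (0.979) and CCDC53 (0.953). The 2 most like TXN were RP11-478C6.4 (0.980) and RP11-304L19.5 (0.976), and for PRDX3 they were PCMT1 (0.944) and TIMM21 (0.943). DPP7 (0.950) and EDF1 (0.944) were most like PRDX5, TSNARE1 (0.902) and INPP5K (0.899) most like PRDX2, and DHRS1 (0.849) and PINK1 (0.831) most like TXNRD2. The points share libraries, groups and scaling, so each r describes these 12 libraries and no more.

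Near copies and overlapping genes touch some of the counts. GENCODE 44 names 7 pseudogenes after TXN, 4 each after PRDX2 and PRDX3, and 1 each after PRDX1 and PRDX5. Those of PRDX2 and PRDX3 were listed in the files under these names and held 2.52% and 2.75% as many reads as their parent genes. Reads were counted without regard to strand, so those from PRDX1 and MMACHC, which share 29.8% of the PRDX1 exon bases on opposite strands, and those from PRDX2 and an antisense gene over 12.1% of its exon bases, cannot be told apart or were left out as ambiguous.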

How the data were processed

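The authors sequenced single-end TruSeq libraries, mapped reads to hg19 with TopHat2 2.1.0 and counted them on exons with HTSeq 0.11.2 without strand, in intersection-nonempty mode; the annotation release is not given in the sources used here. The deposited files hold raw counts per gene symbol, 55765 symbols and 5 HTSeq counters, and 523 rRNA genes were removed. Reads outside genes, ambiguous reads and reads not unique took 5.82 to 7.84%, 3.16 to 3.38% and 6.08 to 6.81% of each file and stayed out of library sizes. Between libraries of 1 group, chi-square per degree of freedom over genes was 2.11 to 11.7, so none was a duplicate and the spread exceeded counting error.

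For each pair of groups, the 6 libraries were fitted with edgeR 4.0.16 (R 4.3.3; TMM scaling, quasi-likelihood test, Benjamini-Hochberg adjustment over all genes that averaged 10 or more normalized counts in either group), as the study's thresholds ask; the study itself used DESeq2. The interaction used all 12 libraries and an adjusted p under 0.1. Levels are counts scaled by TMM over the 12 libraries, and RPKM uses canonical transcript lengths of GENCODE 44. The scripts were tested on simulated data.

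The genes named are all 10 members, list genes called in any comparison, NFE2L2 and the 2 genes most like each member. Members and lists were chosen with earlier results of these data known, and the CACGAG hexamer was added after its promoter had been read. Replicate numbers were not treated as pairs in the main fits, as the study's methods name no pairing. Correlations of deviations between libraries of the same number ran from -0.16 to 0.25. Such correlations cannot show whether these libraries shared a culture or a batch. Alternatives were DESeq2 1.42.0 (Wald test, size factors), library size only, filterByExpr, no filter, all 12 libraries in the fit, a replicate block, other thresholds, rRNA genes kept and leaving out each library. Plots used Python 3.11.15 and matplotlib 3.10.9.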

Additional observations from a re-analysis of the deposited data

Results flagged for a closer look

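In 3 genes the response to Cyss depletion differed between NRF2 and GFP cells by the interaction term of edgeR's quasi-likelihood test, 1 with a higher and 2 with a lower value in NRF2 cells, against 8.97% and 6.13% of all genes tested. The difference on the log2 scale was 0.27 for TXNRD1 (SE 0.0773, adjusted p = 0.0381), -0.23 for TXN (SE 0.0779, adjusted p = 0.0670) and -0.23 for PRDX5 (SE 0.0663, adjusted p = 0.0402). They passed in 9, 3 and 11 of 12 leave-one-out fits, respectively. Groups of 3 libraries are too small for a test of single outlying libraries.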

How the results depend on the processing

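Without a fold threshold, 2 genes of the system were called higher and 3 lower upon depletion in GFP cells (3.11% and 2.81% of all genes), and 0 and 4 upon depletion in NRF2 cells (15.2% and 13.8%). NRF2 with Cyss gave 2 higher and 1 lower (4.15% and 2.28%), NRF2 w/o Cyss 2 and 3 (14.0% and 14.7%), and NRF2 cells w/o Cyss against GFP cells with Cyss 0 and 4 (14.3% and 14.7%). Scaled by library size only, 2 were called lower upon depletion in NRF2 cells, PRDX1 being added, as the share of all genes called lower went from 5.14% to 8.08%. On that scale 4 had a lower response in NRF2 cells, PRDX1 and TXNIP being added, as that share went from 6.13% to 11.2% and the median of all genes to -0.07. At an adjusted p under 0.05 only 1 had a lower response there (2.99% of all genes). The replicate block, which pairs libraries by number, left the counts at 0 higher and 2 lower for depletion with GFP, 0 and 1 for depletion with NRF2, 1 and 0 with NRF2 in full medium, 2 and 1 w/o Cyss and 0 and 0 for NRF2 cells w/o Cyss against GFP cells with Cyss, and gave 1 and 3 for the interaction (10.6% and 7.40% of all genes), where PRDX1 was added (-0.19, adjusted p = 0.0769, edgeR's quasi-likelihood test).

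Signs turned only for values that were not called. TXN upon depletion in GFP cells was -0.0034 by library size only and -0.0090 without a filter, PRDX2 upon depletion in NRF2 cells was -0.049 by library size only, and TXNRD1 in NRF2 cells w/o Cyss against GFP cells with Cyss was 0.0066 with all 12 libraries in the fit. With 1 library left out, TXN in depleted GFP cells ranged from -0.012 to 0.021, and in depleted NRF2 cells PRDX2 ranged from -0.035 to 0.052, PRDX6 from -0.035 to 0.014 and TXNIP from -0.13 to 0.050. TXNRD2 with NRF2 w/o Cyss ranged from -0.091 to 0.0060. In NRF2 cells w/o Cyss against GFP cells with Cyss, TXNRD1 ranged from -0.064 to 0.059, TXNRD2 from -0.0078 to 0.089 and SRXN1 from -0.11 to 0.040. The number called lower ranged from 0 to 2 upon depletion in NRF2 cells and from 0 to 1 for NRF2 cells w/o Cyss against GFP cells with Cyss, and the number called higher with NRF2 w/o Cyss ranged from 1 to 2. For the interaction it ranged from 0 to 1 higher and from 0 to 4 lower. The cause of these moves was not tested. With 3 libraries a group, fits with 1 left out rest on 2 against 3, and SRXN1, with the fewest reads of the 10 genes, had the largest SE in each comparison.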
